A study of Homo sapiens with 8 samples.

Results

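The 31 genes described here encode enzymes and regulators of cholesterol and fatty acid synthesis, and were chosen by name as sterol and lipogenic genes under control of the sterol regulatory element-binding proteins (SREBP), out of 60710 genes in the deposited table. All 31 had a row and passed the filter on low counts, as did 16186 genes in all. They comprise 6 genes of the mevalonate branch, 11 of the steps from squalene to cholesterol, 6 of SREBP control and 8 of fatty acid synthesis and desaturation. The cells were A375, an established human metastatic melanoma line grown in serum-containing medium, either treated with 50 ng/mL recombinant human TNF for 24 hours (TNF) or left untreated for the same time (NT). Polyadenylated RNA was sequenced in 4 independent experiments, with 1 TNF and 1 NT library each, so n = 4 per group. No genetic change or second agent was part of either group, and the line stands for a single tumor.

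Cholesterol and fatty acids are both built from acetyl-CoA in the cytosol. SREBP transcription factors are made as precursors in the membrane of the endoplasmic reticulum, where SCAP binds them. When sterols are scarce, SCAP carries the precursors to the Golgi apparatus, where proteases release the active part, and when sterols are abundant INSIG proteins hold SCAP back. The SREBP-1 proteins, from SREBF1, act mainly on genes of fatty acid synthesis, and SREBP-2, from SREBF2, mainly on genes of cholesterol synthesis.

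Total counts ran from 30989787 to 44373296 per library. Of 18 established NF-kB targets, which TNF is known to switch on, 18 were higher in TNF-treated cells (edgeR, adjusted p under 0.05). Among all genes tested, 14.5% were called higher. The list of targets was chosen with earlier results of these data known, so its count is not an independent check of the treatment. The melanocyte lineage factor SOX10 was at 1177 ± 86.2 CPM (counts scaled to library size with TMM factors) in TNF cells and 1025 ± 53.9 CPM in NT cells (SD, n = 4 each, adjusted p = 0.0882 in edgeR). Of the 7 tested melanocyte markers, 1 was higher (14.5% of all genes tested) and 1 lower (9.9%). CSPG4 was the higher marker, at 1123 CPM in TNF cells and 824.5 CPM in NT cells (means, n = 4 each). Its log2 fold change was 0.4451 (adjusted p = 0.008935 in edgeR). The lineage factor MITF was not called, with a log2 fold change of 0.0644 (adjusted p = 0.6943 in edgeR). S100B was the lower marker, at 3.05 ± 0.421 CPM in TNF cells and 17.3 ± 3.93 CPM in NT cells (log2 fold change -2.50, adjusted p = 6.77e-06 in edgeR). PMEL and MLANA had at most 24 counts. The pigmentation genes TYR, TYRP1 and DCT had at most 9 counts in any library, so these defining melanocyte markers were absent or nearly so. The 9 immune markers summed to 44.7 to 77.4 CPM in TNF libraries and 26.9 to 34.0 CPM in NT libraries, mostly CD68, which was higher in TNF cells (log2 fold change 1.26), and LYZ, which was lower (-0.90). ITGAM had 5 to 29 counts in TNF libraries and 0 to 1 in NT libraries, and PTPRC, CD3E, CD3D, MS4A1 and NKG7 had at most 3 counts. The 7 epithelial markers summed to 479 to 567 CPM in TNF libraries and 540 to 561 CPM in NT libraries, mostly KRT18, with EPCAM and CDH1 at most at 5 counts, KRT5 higher in TNF cells (log2 fold change 3.02) and KRT14 lower (-1.12). The 7 fibroblast and endothelial markers summed to 14.5 to 26.3 CPM in TNF libraries and 13.6 to 24.5 CPM in NT libraries. Of the 6 tested, PECAM1 and DCN were higher in TNF cells (7.16-fold and 2.64-fold). VWF, LUM and PDGFRA had log2 fold changes of -1.55, -0.79 and -0.54 without being called, and PDGFRB of 0.11. The median of the 6 was -0.21. The part of these markers in the results was not tested. The files of the 4 NT samples are each filed under the record of an NT sample of another experiment, whereas the table of the whole series names its columns by the titles. The assignment of an NT library to its experiment therefore rests on the titles, which leaves the comparison of the groups as it is but bears on every value that pairs libraries by experiment.

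TNF changed the genes of these pathways in both directions. Expression was higher in TNF-treated cells for 4 of the 31 genes (SQLE, INSIG2, FADS1 and FADS2), where 14.5% of all genes tested were higher, and lower for 4 (SCAP, ACSS2, ACACA and FASN), where 9.9% were lower (edgeR, adjusted p under 0.05). The remaining 23 genes did not pass the threshold. With 24.4% of all genes tested called in either direction, the share of called genes among the 31 was close to that of the transcriptome, and the median log2 fold change was 0.05 over the 31 genes and -0.0035 over all genes tested. By role, ACSS2, ACACA and FASN, which lead from acetate to palmitate, were lower, and FADS1 and FADS2, the desaturases of polyunsaturated fatty acids, were higher, while ACLY, SCD and ELOVL6 of the same group were not called. Across all genes, 2345 were higher and 1603 lower with TNF, and this balance depended on scaling, since upper-quartile factors gave 2045 higher and 2196 lower and library totals gave 1925 higher and 2514 lower. The calls of FADS1 and SQLE were lost under both of these scalings.

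**Figure D1:**
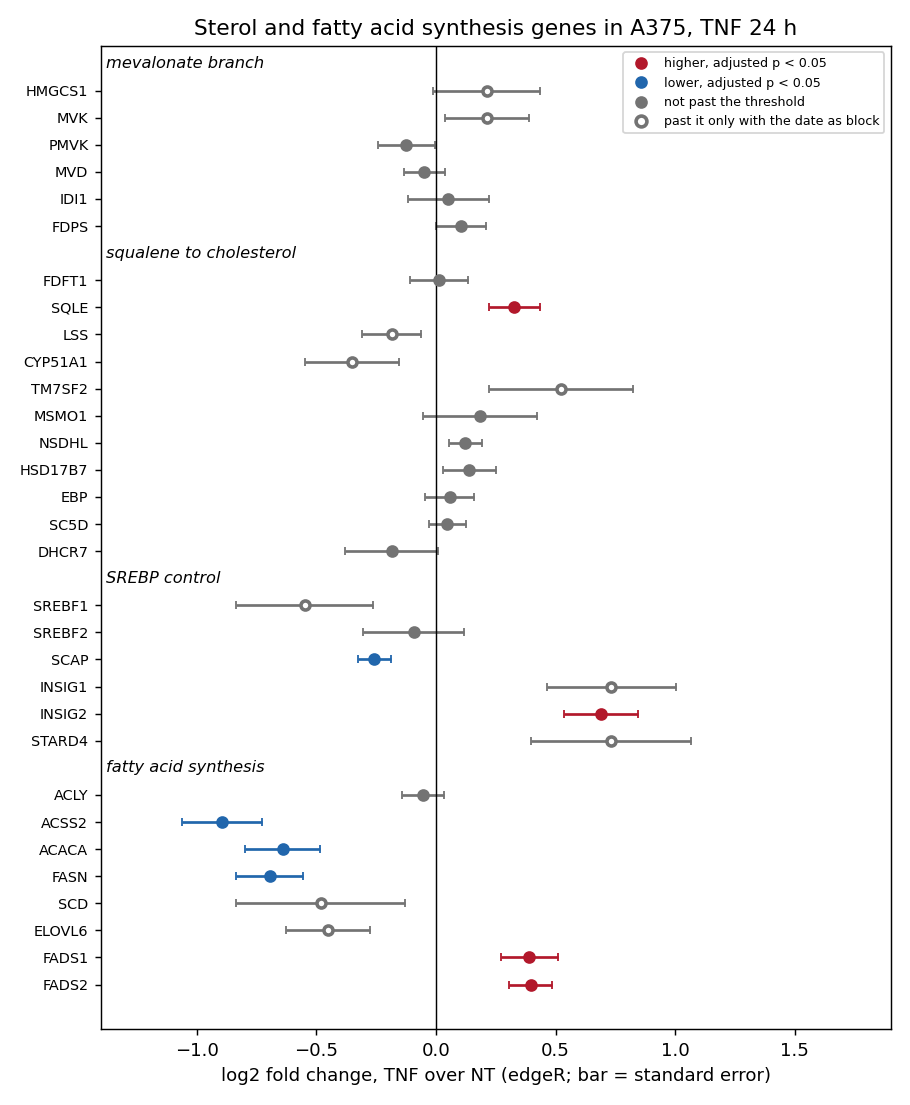
Log2 fold change of TNF over NT for each of the 31 genes, grouped by role, as fitted by edgeR on 4 TNF and 4 NT libraries, with bars of 1 standard error. Red points (4 genes) were higher and blue points (4 genes) lower at an adjusted p under 0.05, grey points were not called in this fit, and open grey points passed once the experiment date was added as a block.

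Fatty acid synthesis held the largest falls among the 31 genes. Of its 8 genes, 3 were lower with TNF (9.9% of all genes tested), 2 were higher (14.5%), and 3 did not pass the test, with a median log2 fold change of -0.47. The genes that fell encode the enzymes that make cytosolic acetyl-CoA from acetate (ACSS2), convert it to malonyl-CoA (ACACA) and assemble palmitate (FASN).

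FASN, fatty acid synthase (ENSG00000169710.9), lies on the minus strand of chromosome 17 at 82078338 to 82098294 (GRCh38) and has 43 exons in its canonical transcript. It was at 1128, 794, 938 and 808 CPM in TNF replicates 1 to 4, against 1816, 1368, 1506 and 1246 CPM in NT replicates 1 to 4. Every TNF library was below every NT library. Means were 917 ± 155 CPM in TNF cells and 1484 ± 246 CPM in NT cells (SD, n = 4 each), a log2 fold change of -0.69 (SE, the standard error, 0.14, adjusted p = 0.00445 in edgeR), or 0.618 of the NT level (95% interval 0.498 to 0.766). Per kilobase of canonical transcript, FASN had the highest level of the 31 genes in both groups, 108.4 CPM per kb in TNF cells and 175.3 CPM per kb in NT cells.

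ACACA, acetyl-CoA carboxylase 1 (ENSG00000278540.5), also lies on the minus strand of chromosome 17, at 37084992 to 37406836, with 56 canonical exons. This enzyme makes the malonyl-CoA that FASN consumes and is the committed step of the pathway. It was at 101, 68.2, 90.3 and 67.7 CPM in TNF replicates 1 to 4, against 158, 109, 132 and 110.0 CPM in NT replicates 1 to 4, again without overlap of the groups. TNF over NT gave a log2 fold change of -0.64 (SE 0.16, adjusted p = 0.0139 in edgeR), with means of 81.7 ± 16.4 CPM in TNF cells and 127 ± 23.1 CPM in NT cells (SD, n = 4 each).

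ACSS2, acetyl-CoA synthetase 2 (ENSG00000131069.20), on the plus strand of chromosome 20 at 34872146 to 34927962 with 18 canonical exons, had the largest fall of the 31 genes. It was at 29.5, 19.0, 20.0 and 19.2 CPM in TNF replicates 1 to 4, against 49.1, 37.0, 32.9 and 43.9 CPM in NT replicates 1 to 4. TNF replicate 1 stood above the other TNF libraries and still below the lowest NT library. The log2 fold change was -0.89 (SE 0.17, adjusted p = 0.00305 in edgeR), which is 0.538 of the NT level (95% interval 0.416 to 0.696). ACLY, the ATP citrate lyase that makes cytosolic acetyl-CoA from citrate instead of acetate, was at 340.3 ± 21.7 CPM in TNF cells and 353 ± 37.3 CPM in NT cells (SD, n = 4 each), with a fold of 0.963 (95% interval 0.842 to 1.101, adjusted p = 0.717 in edgeR). The interval of ACLY does not reach the folds of ACSS2, ACACA or FASN, though the difference between the genes was not tested.

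The calls of FASN, ACACA and ACSS2 held without each library in turn, with adjusted p in edgeR of 0.00201 to 0.0199 for FASN, 0.00787 to 0.0457 for ACACA and 0.000414 to 0.0132 for ACSS2. Among the other fits, ACACA lost its call in a block that gives NT libraries the experiments of their single records in place of those of the titles (adjusted p = 0.0643). In bulk RNA of this kind, fewer cells that express a gene and less RNA per cell cannot be told apart.

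**Figure D2:**
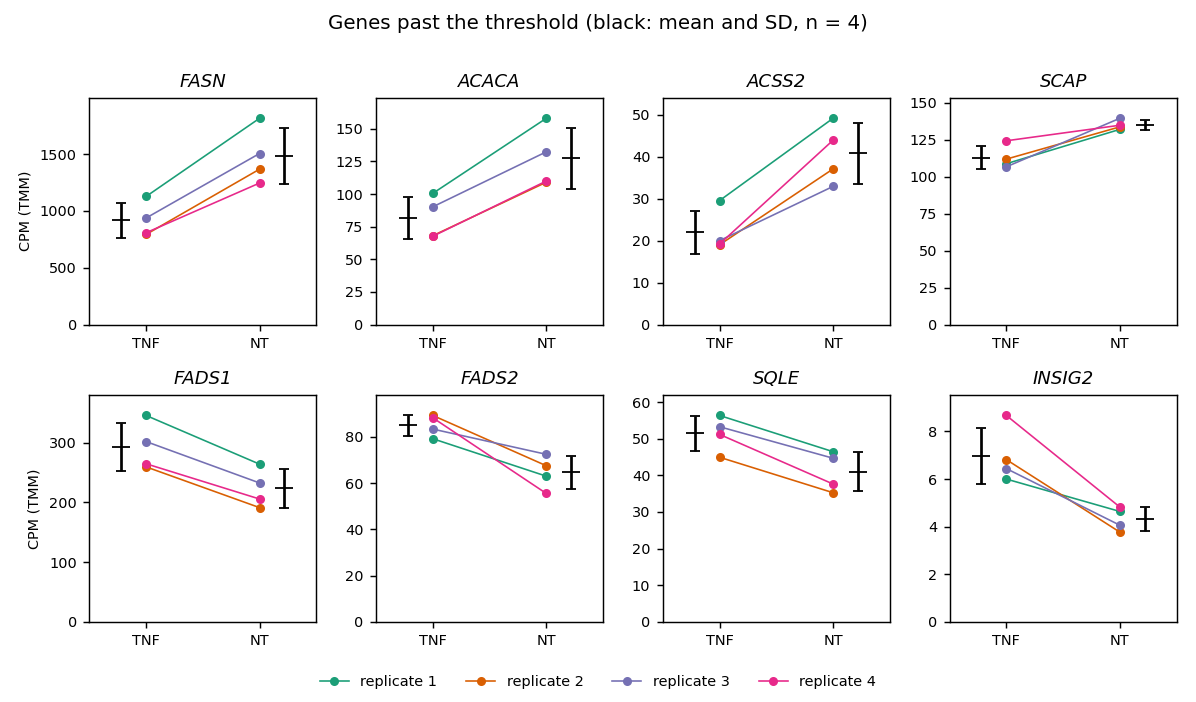
CPM of the 8 called genes in each library, TNF left and NT right, with colored lines joining the libraries of an experiment and black bars giving the mean and SD (n = 4). FASN, ACACA, ACSS2 and SCAP lie lower in every TNF library than in every NT library, while for FADS1 and SQLE the groups overlap although each line runs higher on the TNF side.

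SCD and ELOVL6 act after FASN. SCD, the desaturase that makes oleate from stearate, was at 473, 214, 381 and 166 CPM in TNF replicates 1 to 4, against 656, 353, 433 and 282 CPM in NT replicates 1 to 4. The groups overlapped widely, with a 2.85-fold range among TNF libraries and a 2.33-fold range among NT libraries. The log2 fold change of -0.48 (SE 0.35) was not called (adjusted p = 0.383 in edgeR). Within experiments, however, the TNF library was below its NT partner in 4 of 4, by log2 differences of -0.47, -0.72, -0.19 and -0.76 in experiments 1 to 4, and with the date as a block the log2 fold change was -0.53 (adjusted p = 0.00254 in edgeR).

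ELOVL6, the elongase that extends palmitate to stearate, was at 43.1, 33.8, 41.7 and 29.1 CPM in TNF replicates 1 to 4, against 63.3, 48.2, 54.6 and 35.8 CPM in NT replicates 1 to 4. It too was lower in TNF in 4 of 4 experiments, and the groups overlapped only through the low NT replicate 4. Between groups the log2 fold change was -0.45 (SE 0.18, adjusted p = 0.0929 in edgeR). It passed with the date as a block (adjusted p = 0.000248), without NT replicate 4 (log2 fold change -0.59, adjusted p = 0.0162) and without both libraries of experiment 4 (-0.49, adjusted p = 0.0137).

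FADS1 and FADS2, the desaturases that turn dietary essential fatty acids into long polyunsaturated ones, went the other way. FADS2 (ENSG00000134824.14) was at 79.2, 89.3, 83.4 and 88.3 CPM in TNF replicates 1 to 4, against 63.0, 67.5, 72.5 and 55.5 CPM in NT replicates 1 to 4. No TNF library was as low as any NT library. This amounted to a log2 fold change of 0.40 (SE 0.09, adjusted p = 0.00793 in edgeR).

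FADS1 (ENSG00000149485.19) was at 346, 259, 302 and 265 CPM in TNF replicates 1 to 4, against 264, 191, 232 and 206 CPM in NT replicates 1 to 4. The groups overlapped because NT replicate 1 exceeded TNF replicate 2, yet the 4 experiments gave nearly the same log2 difference, 0.39, 0.44, 0.38 and 0.36. Over all libraries the log2 fold change was 0.39 (SE 0.12, adjusted p = 0.0372 in edgeR, and 0.000103 with the date as a block). Without the block the call was lost with library totals (adjusted p = 0.119) and upper-quartile factors (0.0882), without TNF replicate 1 (0.106) or 3 (0.0782), without NT replicate 2 (0.114), 3 (0.0705) or 4 (0.0953), without both libraries of experiment 4 (0.0657), and in the block by single records (0.134). On chromosome 11 the annotated span of FADS1 (61799627 to 61829318, minus strand) lies within that of FADS2 (61792980 to 61867354, plus strand). Their annotated exons overlap on opposite strands. The first listed RefSeq starts, 61817003 for FADS1 and 61816203 for FADS2, lie 800 bases apart and inside both spans. Counts of both were fractional in 8 of 8 libraries, the library kit kept strand but whether the counting used it is not given in the sources used here, and the split of reads between FADS1, FADS2 and the overlapping FEN1 is therefore uncertain.

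The regulators of SREBP differed from each other as well. Of the 6 genes of SREBP control, INSIG2 was higher, SCAP was lower, and SREBF1, SREBF2, INSIG1 and STARD4 did not pass the test. The median log2 fold change of the 6 was 0.30. With the date as a block, 3 were called higher (21.3% of all genes tested under that fit) and 2 lower (18.2%).

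The promoters of 4 of these genes and of ACSS2 are shown to set out the motif letters around their starts, although of these genes only INSIG2 and ACSS2 passed the test. Sequences are RefSeq windows on GRCh38.p14 from 250 bases before to 50 bases after the annotated start, read in the direction of the gene, at chr7:155297628-155297927 (INSIG1, plus strand), chr2:118088221-118088520 (INSIG2, plus strand), chr5:111512486-111512785 (STARD4, minus strand), chr22:41832855-41833154 (SREBF2, plus strand) and chr20:34874739-34875038 (ACSS2, plus strand). INSIG2 and ACSS2 each have 2 such windows, of which the first listed is printed. For ACSS2 this window lies inside the gene, whose GENCODE span begins at 34872146, so it surrounds a later annotated start. Motif counts below also use the first listed window of each gene. Capitals mark the CCAAT box on either strand (CCAAT or ATTGG), an E-box (CACGTG, which reads the same on both strands) and the sterol regulatory element searched as TCACNCCAC.
INSIG1: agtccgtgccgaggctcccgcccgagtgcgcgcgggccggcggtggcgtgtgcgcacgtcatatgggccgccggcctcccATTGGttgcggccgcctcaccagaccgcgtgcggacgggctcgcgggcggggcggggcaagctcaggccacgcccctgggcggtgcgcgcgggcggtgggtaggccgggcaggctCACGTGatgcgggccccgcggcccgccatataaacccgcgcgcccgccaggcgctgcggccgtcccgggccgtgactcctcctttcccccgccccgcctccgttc
INSIG2: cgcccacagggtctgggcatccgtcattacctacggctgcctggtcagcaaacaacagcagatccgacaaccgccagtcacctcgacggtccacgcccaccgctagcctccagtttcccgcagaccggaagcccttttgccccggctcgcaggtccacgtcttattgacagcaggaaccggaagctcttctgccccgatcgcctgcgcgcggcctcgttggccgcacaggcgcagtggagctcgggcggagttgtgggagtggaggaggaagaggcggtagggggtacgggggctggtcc
STARD4: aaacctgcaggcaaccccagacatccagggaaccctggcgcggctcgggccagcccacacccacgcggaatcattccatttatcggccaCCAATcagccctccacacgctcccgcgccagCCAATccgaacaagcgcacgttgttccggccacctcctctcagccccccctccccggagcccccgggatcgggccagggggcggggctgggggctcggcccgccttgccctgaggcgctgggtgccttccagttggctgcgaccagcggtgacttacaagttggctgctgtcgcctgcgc
SREBF2: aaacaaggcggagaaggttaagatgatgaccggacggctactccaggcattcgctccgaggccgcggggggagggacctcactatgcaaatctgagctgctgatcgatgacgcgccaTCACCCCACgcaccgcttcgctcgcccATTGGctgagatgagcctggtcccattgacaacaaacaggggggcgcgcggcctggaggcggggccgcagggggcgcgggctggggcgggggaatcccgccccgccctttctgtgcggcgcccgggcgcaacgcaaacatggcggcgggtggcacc
ACSS2: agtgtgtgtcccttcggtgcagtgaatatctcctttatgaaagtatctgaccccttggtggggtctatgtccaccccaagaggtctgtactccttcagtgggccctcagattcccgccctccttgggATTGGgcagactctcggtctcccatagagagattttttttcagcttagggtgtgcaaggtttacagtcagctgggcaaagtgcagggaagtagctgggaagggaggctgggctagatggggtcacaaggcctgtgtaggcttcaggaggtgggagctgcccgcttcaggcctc

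The INSIG1 window holds a CCAAT box, the binding letters of NF-Y, on the minus strand at -170 from the start and an E-box at -55. The STARD4 window holds CCAAT boxes at -161 and -130, that of ACSS2 holds a CCAAT box at -123, and that of INSIG2 holds none of the 3 marked motifs. In SREBF2 the sterol regulatory element lies at -133 and a CCAAT box at -106. Of the 31 genes, 28 had a window (all but SQLE, FDFT1 and FASN). Searched on both strands, the CCAAT box was in 18 of these 28, against 35.7% of all 27305 genes with a window, and the GC box GGGCGG, the binding letters of SP1, in 26 of 28, against 44.6%. The E-box was in 4 of 28 (LSS, SC5D, SCAP and INSIG1), against 7.43%, and TCACNCCAC in 1 of 28 (SREBF2), against 1.15%. The NF-kB consensus was in 3 of 28 (MVK, SREBF1 and SREBF2), against 5.72%, and in SREBF2, at -18, it overlaps GC boxes at -23 and -10. The 27305 genes were not limited to those tested here, whereas all 28 were tested, so the shares compare unlike sets. These counts describe letters in a fixed window and not binding.

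INSIG1 and INSIG2 encode the proteins that retain SCAP in the endoplasmic reticulum when sterols are abundant. INSIG2 (ENSG00000125629.15, plus strand of chromosome 2, 118088452 to 118110997, 6 canonical exons) was at 5.999, 6.82, 6.44 and 8.67 CPM in TNF replicates 1 to 4, against 4.64, 3.77, 4.06 and 4.82 CPM in NT replicates 1 to 4. Every TNF library was above every NT library, and TNF replicate 4 was the highest. Its mean was 6.98 ± 1.18 CPM in TNF cells and 4.32 ± 0.491 CPM in NT cells (SD, n = 4 each), a log2 fold change of 0.69 (SE 0.15, adjusted p = 0.00767 in edgeR). The call held in each of 19 alternative fits.

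INSIG1, itself a target of SREBP in a feedback loop, was more abundant and more variable. It was at 75.4, 39.2, 55.0 and 36.7 CPM in TNF replicates 1 to 4, against 44.4, 27.5, 31.2 and 20.8 CPM in NT replicates 1 to 4. TNF replicates 2 and 4 were below NT replicate 1, so the groups overlapped, but TNF was higher in 4 of 4 experiments, by log2 differences of 0.76, 0.51, 0.81 and 0.81. The log2 fold change of 0.73 (SE 0.27) equalled a fold of 1.66 (95% interval 1.09 to 2.52) and narrowly missed the threshold (adjusted p = 0.0795 in edgeR). It passed with the date as a block (adjusted p = 1.23e-05), with DESeq2 (0.0207), without NT replicate 1 (0.0298, log2 fold change 0.96) and without both libraries of experiment 1 (0.0415).

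STARD4, a sterol transfer protein that moves cholesterol between membranes, followed a similar course. It was at 28.0, 13.2, 22.2 and 11.1 CPM in TNF replicates 1 to 4, against 17.4, 8.31, 11.3 and 7.78 CPM in NT replicates 1 to 4. The spread within a group, 2.53-fold among TNF libraries and 2.23-fold among NT libraries, exceeded the difference between groups. Between groups the log2 fold change was 0.73 (SE 0.33, adjusted p = 0.151 in edgeR), and with the date as a block 0.72 (adjusted p = 9.79e-05).

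SCAP, the escort of the SREBP precursors, was the steadiest of the 6 within groups. SCAP (ENSG00000114650.20, minus strand of chromosome 3, 47413681 to 47477126, 23 canonical exons) was at 109, 112, 107 and 124 CPM in TNF replicates 1 to 4, against 132, 134, 139.5 and 135 CPM in NT replicates 1 to 4. No library of either group crossed into the other. TNF over NT was a small log2 fold change of -0.26 (SE 0.07, adjusted p = 0.0186 in edgeR), 0.836 of the NT level (95% interval 0.753 to 0.928). The call was lost without TNF replicate 3 (adjusted p = 0.0578), without NT replicate 3 (0.0600), without both libraries of experiment 1 (0.0791) and in the block by single records (0.0959).

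SREBF1 and SREBF2, which encode the SREBP precursors, varied more among the libraries of a group than between groups. SREBF1 was at 175, 87.0, 118 and 75.2 CPM in TNF replicates 1 to 4, against 250.4, 140.4, 141 and 134 CPM in NT replicates 1 to 4. NT replicate 1 stood far above the other NT libraries, and TNF replicate 1 above 3 of the 4 NT libraries. The log2 fold change of -0.55 (SE 0.29) was not called (adjusted p = 0.212 in edgeR). TNF was lower within 4 of 4 experiments, by log2 differences of -0.51, -0.69, -0.26 and -0.83, and the block gave -0.57 (adjusted p = 0.000952). SREBF1 also passed without TNF replicate 1 (log2 fold change -0.84, adjusted p = 0.0469) and without both libraries of experiment 1 (-0.57, adjusted p = 0.0402). An exon of RAI1 overlaps it on the opposite strand.

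SREBF2 was at 151, 88.8, 123 and 92.3 CPM in TNF replicates 1 to 4, against 170.2, 102, 119 and 94.8 CPM in NT replicates 1 to 4. Its fold was 0.937 (95% interval 0.676 to 1.30, adjusted p = 0.804 in edgeR, and 0.244 with the date as a block). Experiments differed in sign, with log2 differences of -0.17, -0.21, 0.06 and -0.04.

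**Figure D3:**
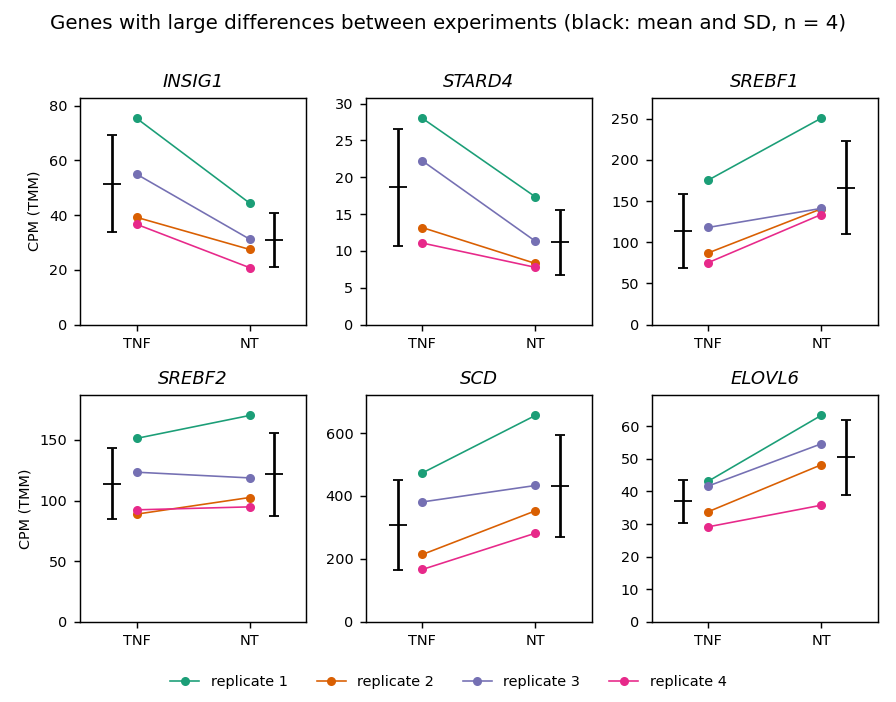
CPM of INSIG1, STARD4, SREBF1, SREBF2, SCD and ELOVL6 in each library, TNF left and NT right, with colored lines joining the libraries of an experiment and black bars giving the mean and SD (n = 4). None of the 6 was called with treatment as the only term and all 8 libraries in edgeR, and in 5 of them all 4 lines slope the same way, SREBF2 being the exception.

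The mevalonate branch, which makes the isoprenoid precursors of cholesterol, had no called gene among the 6 reported here, which are not the whole branch. All 6 missed the threshold (24.4% of all genes tested were called in either direction). Of the 6, 0 had an unadjusted p under 0.05 in edgeR (5698 of all 16186 genes tested did). Their median log2 fold change was 0.08. HMGCS1, the cytosolic HMG-CoA synthase, ranged from 29.5 to 57.1 CPM in TNF libraries and from 28.4 to 48.5 CPM in NT libraries, a fold of 1.16 (95% interval 0.822 to 1.63). MVK, mevalonate kinase, ranged from 19.6 to 31.6 CPM in TNF libraries and from 18.7 to 27.8 CPM in NT libraries, likewise 1.16-fold (95% interval 0.886 to 1.52). Both were higher with TNF within 4 of 4 experiments and were called only with the date as a block (adjusted p = 0.0266 for HMGCS1 and 0.0357 for MVK, edgeR). Annotated exons of MMAB overlap MVK on the opposite strand.

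The other reported genes of the mevalonate branch differed little between groups. PMVK and MVD, the phosphomevalonate kinase and diphosphomevalonate decarboxylase, had log2 fold changes of -0.12 and -0.05 (SEs 0.12 and 0.09), and IDI1, which isomerizes the isopentenyl unit, of 0.05 (SE 0.17). FDPS, farnesyl diphosphate synthase, was at 152 ± 20.8 CPM in TNF cells and 142 ± 12.9 CPM in NT cells (SD, n = 4 each), with fractional counts in every library. Its fold had a 95% interval of 0.916 to 1.26.

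From squalene to cholesterol, SQLE was the only one of 11 genes called, and it was higher. SQLE (squalene epoxidase, ENSG00000104549.12, plus strand of chromosome 8, 124998497 to 125022283, 11 canonical exons) catalyzes the first oxygenation of the sterol branch. It was at 56.4, 45.0, 53.3 and 51.2 CPM in TNF replicates 1 to 4, against 46.5, 35.3, 44.7 and 37.6 CPM in NT replicates 1 to 4. The groups overlapped by a narrow margin, between TNF replicate 2 and NT replicate 1, and TNF was higher within 4 of 4 experiments. Between groups the log2 fold change was 0.33 (SE 0.11, adjusted p = 0.0473 in edgeR), with means of 51.5 ± 4.83 CPM in TNF cells and 41.0 ± 5.41 CPM in NT cells (SD, n = 4 each). With the date as a block the adjusted p was 0.000985. The call was lost in 13 of 19 alternative fits, among them RLE factors (adjusted p = 0.0527), library totals (0.156), upper-quartile factors (0.112), a minimum of 10 counts in every library (0.0512), the block by single records (0.145), and the fits without TNF replicate 1 (0.129), 3 (0.100) or 4 (0.0572), NT replicate 2 (0.137), 3 (0.0568) or 4 (0.117), experiment 1 (0.0783) or experiment 4 (0.110).

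The other 10 genes of the sterol steps had log2 fold changes of -0.35 to 0.52. CYP51A1, the lanosterol demethylase, was at 35.8 ± 10.6 CPM in TNF cells and 45.7 ± 6.19 CPM in NT cells (SD, n = 4 each), a log2 fold change of -0.35 (SE 0.20, adjusted p = 0.239 in edgeR). LSS, which closes the sterol rings to lanosterol, had a log2 fold change of -0.18 (SE 0.12, adjusted p = 0.332 in edgeR). Both were lower within 4 of 4 experiments and were called only with the date as a block (adjusted p = 0.0155 for CYP51A1 and 0.0225 for LSS). Exons of AKAP9 overlap CYP51A1 on the opposite strand.

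TM7SF2, a sterol reductase, was the least abundant of the 31 genes, with 30 to 91 counts per library. It was at 2.38, 1.38, 1.81 and 1.46 CPM in TNF replicates 1 to 4, against 1.95, 0.847, 0.944 and 1.11 CPM in NT replicates 1 to 4. The log2 fold change of 0.52 (SE 0.30, adjusted p = 0.253 in edgeR) became a call with the date as a block (adjusted p = 0.0449) or without NT replicate 1 (0.0481, log2 fold change 0.86), and annotated exons of VPS51 overlap the gene on its own strand. DHCR7, the last reductase of the pathway, had a log2 fold change of -0.19 (SE 0.20), was lower within 4 of 4 experiments and missed the threshold even with the block (adjusted p = 0.05003). The remaining genes, FDFT1, MSMO1, NSDHL, HSD17B7, EBP and SC5D, passed neither fit and had log2 fold changes of 0.01 to 0.18.

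In both groups, the library of experiment 1 most often held the highest level of these genes. Experiment 1 gave the highest level among TNF libraries for 26 of the 31 genes and among NT libraries for 23 of 31, where TNF replicate 1 was highest for 24.4% and NT replicate 1 for 26.7% of all genes tested. The lowest levels were in TNF replicate 4 for 14 genes (36.1% of all genes tested) and in TNF replicate 2 for 13 (19.2%), and in NT replicate 4 for 17 (30.0%) and NT replicate 2 for 10 (20.0%). The median deviation of the 31 genes from their group mean was 0.28, -0.18, 0.07 and -0.18 log2 CPM in TNF replicates 1 to 4 and 0.25, -0.12, 0.04 and -0.15 in NT replicates 1 to 4, while the median over all genes tested was near 0 in each library. NT replicate 1 was the deepest library at 44373296 counts, whereas TNF replicate 1 had 34997655 counts and was not the deepest of its group. What set experiment 1 apart was not tested.

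**Figure D4:**
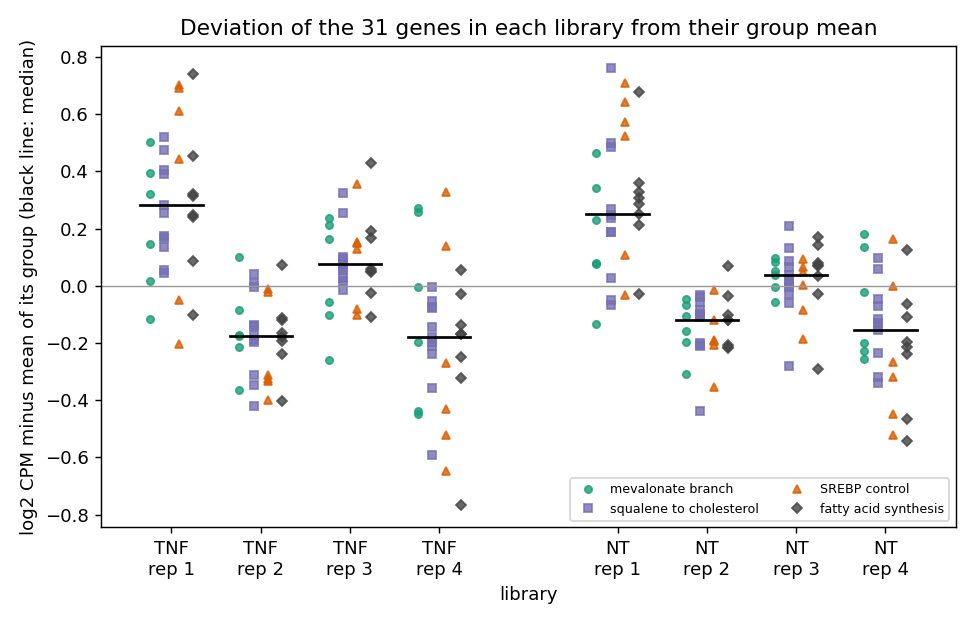
Deviation of each of the 31 genes from the mean of its group, in log2 CPM, for TNF libraries on the left and NT libraries on the right, with symbols by role and a black line at the median. Medians lie at 0.28 in TNF replicate 1 and 0.25 in NT replicate 1, and below 0 in replicates 2 and 4 of both groups.

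Deviations correlated positively between the 2 libraries of each experiment. Across the 31 genes the correlation of the TNF with the NT deviation was 0.895, 0.707, 0.319 and 0.792 in experiments 1 to 4, and over all 16186 genes 0.351, 0.169, 0.238 and 0.460. Between libraries of different experiments the correlation over all genes was -0.401 to 0.226, the highest being above that of experiment 2. It was not computed over the 31 genes, so whether these followed their own experiment more than another was not tested. All these correlations are descriptions over genes that share a library and its depth. Genes differed in their range among the libraries of a group, which does not separate the experiment from library and counting variation. STARD4, SCD, INSIG1, TM7SF2 and SREBF1 spanned 1.72-fold to 2.85-fold among TNF libraries and 1.88-fold to 2.33-fold among NT libraries, whereas SCAP, NSDHL, SC5D and MVD spanned 1.09-fold to 1.17-fold among TNF libraries and 1.06-fold to 1.14-fold among NT libraries.

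Comparing libraries within experiments takes out what the 2 libraries of an experiment share. TNF was higher in 4 of 4 experiments for 11 of the 31 genes (27.4% of all genes tested) and lower in 4 of 4 for 10 (25.9%), with 10 genes moving in both directions. With the date entered as a block, edgeR called 18 of the 31 genes (39.5% of all genes tested), 9 of them higher (21.3% of all genes tested) and 9 lower (18.2%). The 9 higher were HMGCS1, MVK, SQLE, TM7SF2, INSIG1, INSIG2, STARD4, FADS1 and FADS2, and the 9 lower were LSS, CYP51A1, SREBF1, SCAP, ACSS2, ACACA, FASN, SCD and ELOVL6. In fatty acid synthesis the block thus called 5 genes lower and 2 higher, with ACLY alone uncalled. Giving the NT libraries the experiments of their single records instead left 2 genes higher (INSIG2 and FADS2) and 2 lower (ACSS2 and FASN).

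Genes around these pathways were counted from lists of related genes, with levels as mean ± SD over the 4 libraries of a group. Among 17 tested genes of fatty acid elongation and activation, 5 were higher (14.5% of all genes tested) and 2 lower (9.9%), with a median log2 fold change of 0.01. ACSL5, an acyl-CoA synthetase, was at 3.70 ± 0.827 CPM in TNF cells and 0.706 ± 0.255 CPM in NT cells (log2 fold change 2.39, SE 0.29, adjusted p = 0.000182 in edgeR). ACSL1, a related synthetase, was at 56.9 ± 8.71 CPM in TNF cells and 29.3 ± 4.91 CPM in NT cells. ACSL3, more abundant than both, was lower, at 128.5 ± 29.9 CPM in TNF cells and 208 ± 35.1 CPM in NT cells. Its log2 fold change was -0.70 (adjusted p = 0.0131 in edgeR), and ACSL4, with 0.04, was not called. The elongases moved apart, with ELOVL7 at 1.63 ± 0.521 CPM in TNF cells and 0.383 ± 0.260 CPM in NT cells, and ELOVL2, which elongates polyunsaturated fatty acids, at 0.750 ± 0.149 CPM in TNF cells and 2.43 ± 0.208 CPM in NT cells (adjusted p = 0.00536 and 0.000162 in edgeR).

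Of 16 tested genes that supply lipogenesis with reducing power and glycerolipid enzymes, 0 were higher (14.5% of all genes tested) and 4 lower (9.9%), with a median log2 fold change of -0.05. IDH1, the cytosolic isocitrate dehydrogenase that makes NADPH, was at 40.7 ± 11.9 CPM in TNF cells and 91.0 ± 14.5 CPM in NT cells, a log2 fold change of -1.16 (SE 0.20, adjusted p = 0.00199 in edgeR). LPIN2, PCYT2 and GPAM, enzymes of glycerolipid synthesis, had log2 fold changes of -0.53, -0.43 and -0.38 (adjusted p = 0.0292, 0.0122 and 0.0354 in edgeR). At an unadjusted p under 0.05, 7 of the 16 passed, where 5698 of all 16186 genes tested did, and the block called 1 higher (21.3% of all genes tested) and 6 lower (18.2%).

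In the handling of finished sterols, several genes moved in each direction. All 6 tested genes of oxysterol formation and cholesterol esters were called, 3 higher (14.5% of all genes tested) and 3 lower (9.9%). CYP27A1, the mitochondrial sterol 27-hydroxylase, was at 14.1 to 16.4 CPM in TNF libraries and 6.80 to 8.66 CPM in NT libraries (log2 fold change 1.01, SE 0.11, adjusted p = 7.89e-05 in edgeR). NCEH1, a cholesteryl ester hydrolase, had a log2 fold change of 0.91, whereas LIPA, the lysosomal acid lipase, had a log2 fold change of -0.43.

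Of 14 genes of sterol trafficking, 3 were higher and 2 lower (14.5% and 9.9% of all genes tested). NPC1, which exports cholesterol from lysosomes, was at 68.9 ± 3.78 CPM in TNF cells and 52.2 ± 2.58 CPM in NT cells (adjusted p = 0.00184 in edgeR), and GRAMD1C had a log2 fold change of 0.78. SCARB1, a receptor for high-density lipoprotein, and TMEM97, a partner of NPC1, were lower with log2 fold changes of -0.48 and -0.62 (adjusted p = 0.00440 and 0.000197 in edgeR). Of 8 tested genes of the oxysterol receptor LXR and its targets, 2 were higher, among them SMPDL3A (log2 fold change 0.63), and LPCAT3, a phospholipid acyltransferase, was lower (-0.67).

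Of 18 genes of SREBP processing and turnover, 4 were higher (14.5% of all genes tested) and 2 lower (9.9%). Higher among them were SEC24A, a coat protein of the vesicles that leave the endoplasmic reticulum, at 97.9 ± 3.46 CPM in TNF cells and 72.4 ± 1.11 CPM in NT cells (log2 fold change 0.43, adjusted p = 0.000403 in edgeR), and PAQR3, a Golgi anchor of SCAP, with a log2 fold change of 0.39 (adjusted p = 0.0221 in edgeR). TRIB1 and the ubiquitin ligase gene SYVN1 had log2 fold changes of 0.98 and 0.30. In the branch from farnesyl diphosphate to prenylation and ubiquinone, 0 of 12 tested genes were higher and 3 were lower (FNTB, PDSS1 and PGGT1B, log2 fold changes -0.39, -0.36 and -0.26, adjusted p = 0.0408, 0.0382 and 0.0455 in edgeR), where 14.5% and 9.9% of all genes tested were called.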

How the data were processed

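RNA of A375 cells was analysed in 8 libraries, 4 TNF (50 ng/mL, 24 hours) and 4 NT. The authors prepared stranded libraries, aligned reads with bowtie2 to the GRCh38 transcriptome and estimated counts with RSEM 1.2.25 (for bowtie2 no version is given in the sources). The deposited table holds expected counts, which the authors left unnormalized. Rounding them to whole numbers moved their sum by 0.000138%.

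Low genes were removed with filterByExpr (minimum count of 10, total of 15, by group). TMM factors and the robust quasi-likelihood test of edgeR 4.0.16 (R 4.3.3) were used with treatment alone in the model. P-values of the 16186 genes were adjusted by Benjamini-Hochberg, and 0.05 was the threshold. The SE of a fold change is its size over the square root of F. A prior count of 2 entered log2 CPM. Alternatives were DESeq2 1.42.0 and limma 3.58.1 (voom), beside RLE and upper-quartile factors, library totals, other filters, the date as a block, each library left out and a threshold of 0.01. The fits were tested on simulated data.

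Replicates are numbered by the experiment date in the titles, which pairs the libraries. Same-date libraries deviated together, with correlations of 0.351, 0.169, 0.238 and 0.460 over all genes tested. Libraries of different dates had correlations of -0.401 to 0.226, the highest for TNF replicate 3 with NT replicate 1. Paired by the single records instead of the titles, TNF replicates 1 to 4 had correlations of -0.071, -0.099, -0.401 and -0.307 with their NT libraries. No libraries of a group agreed within sampling noise (lowest chi-square over its degrees of freedom 12.2), so none was treated as a duplicate deposit. The 8 single-sample files equal the columns of the same name in the series table, from which all counts were taken.

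Positions and transcript lengths come from GENCODE release 44 and promoters from RefSeq. The members and gene lists were chosen with earlier results of these data known. All 31 genes are accounted for. Values in every library are given for called genes with an absolute log2 fold change of at least 0.5 and for SREBP control, and also, chosen after their values were seen, for FADS1, FADS2, SQLE, SCD, ELOVL6 and TM7SF2. Of each other list, up to 4 called genes with the largest change and a mean of at least 1 CPM are named. ACSL3 and ACSL4 were added beside ACSL1 and ACSL5 after their values were seen. Some genes of these pathways are not reported here.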

Additional observations from a re-analysis of the deposited data

Results flagged for a closer look

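Among the 31 genes, a single library stood far from the other 3 of its group in 3 of 62 sets of 4 libraries, and chance gives about 3.1. ACSS2 had a log2 CPM of 4.89 in TNF replicate 1 (other TNF libraries 4.25 to 4.33). In NT replicate 1 the log2 CPM of SREBF1 was 7.97 (other NT libraries 7.06 to 7.14) and that of HSD17B7 was 3.77 (other NT libraries 3.51 to 3.52). TNF replicate 1 and NT replicate 1 are the libraries of experiment 1. Without both libraries of that experiment the log2 fold change of SREBF1 was -0.57 (adjusted p = 0.0402 from edgeR), and ACSS2 was still called lower.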

How the results depend on the processing

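Leaving out both libraries of experiment 1 or of experiment 4, and the block by single-sample records, were chosen after the data were seen. Over 19 alternative fits the 31 genes gave 589 values, of which 519 kept direction and side of the threshold, 27 lost the call, 18 gained it and 25 changed sign, all in genes that were not called. INSIG2, FADS2, ACSS2 and FASN were called in every fit. The 4 higher and 4 lower members became 9 and 9 with the replicate block (2946 lower among all genes), 2 and 2 with the block by single-sample records (1557 higher and 801 lower among all genes) and 2 and 2 at an adjusted p under 0.01 (1548 and 772). Higher members were 2 with upper-quartile factors, 2 with library totals (2514 lower among all genes) and 2 without experiment 4, and without experiment 1 the genes lower were 938. Leaving out each library gave 2 to 6 members higher and 3 to 5 lower, with 1880 to 2521 genes higher and 1110 to 1896 lower. Why the counts moved was not tested.

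Signs turned near 0. With upper-quartile factors the log2 fold changes were -0.0026 for IDI1, -0.0450 for FDFT1, -0.0003 for EBP and -0.0097 for SC5D. With library totals they were -0.0244, -0.0685, -0.0237 and -0.0339 for the same genes. FDFT1 was at -0.0032 with no filter, and without experiment 1 FDFT1 was at -0.0006 and IDI1 at -0.0068. Leaving out each library gave -0.0951 to 0.1799 for IDI1, -0.0957 to 0.1004 for FDFT1, -0.0154 to 0.3742 for MSMO1, -0.0081 to 0.1301 for EBP, -0.2660 to 0.1122 for SREBF2, -0.3368 to 0.0098 for DHCR7 and -0.0948 to 0.0204 for ACLY. TM7SF2, the least abundant member, had 30 to 91 counts per library.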
